A study of Homo sapiens with 4 samples.

Results

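The comparison of HepG2 cells with a stable ADAR knockdown against HepG2 cells with a scrambled control was taken from every row of the authors' table for this line, which is 1413 of the 2358 rows deposited for the series. HepG2 is a line from a human liver carcinoma. The HepG2_ADARkd cells had been stably transfected with a plasmid carrying an siRNA against ADAR1, picked among several for its effect on ADAR. The HepG2_control cells carried a plasmid with scrambled siRNA, so both groups share the transfection and the selection that goes with it. Each group had 1 sample with 2 technical replicates, and the labels do not say whether a line was a clone or a pool. With 1 culture per group no difference below has a replicate check, and no error, test or p-value is attached to any value. A K562 pair of the same design belongs to the series.

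ADAR encodes the enzyme ADAR1, which deaminates adenosine in double-stranded RNA, giving inosine. Inosine is read as guanosine, and editing by ADAR1 is known to keep the cell's own double-stranded RNA from being sensed as foreign. The series set out to ask how ADAR acts on alternative splicing, whereas the values here are gene levels.

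Each row gave the authors' average for the knockdown and for the control, in a unit that is not named and that may differ between genes. Averages are therefore compared within a gene and not between genes. Folds are the ratio of both averages after adding 1, which understates differences of low genes. The table held only genes at or past 2-fold, so each member differed by construction, and what can be described is direction, size and role. Of the 1409 distinct genes, 873 were protein coding with a symbol, and 490 of these reached the table's median of 49.8 in the higher of their averages. These 490 are called well measured below, though a gene could reach this floor through its higher group alone. Of them, 253 have another annotated gene on the opposite strand, and since the use of strand in counting is not stated, reads of such pairs cannot be told apart.

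ADAR (ENSG00000160710) had an average of 129 in HepG2_ADARkd and 461 in HepG2_control, 3.54-fold lower and in the direction of the labels. The labelled cell type could be checked only in part. Of 27 hepatocyte markers, 3 were listed, 2 higher and 1 lower, with summed averages of 278 in HepG2_ADARkd and 683 in HepG2_control. Such sums add values whose unit may differ between genes, and this one is mostly HPD. APOE, an apolipoprotein gene of hepatocytes, stood at 21.5 in HepG2_ADARkd and 8.25 in HepG2_control, and FOXA1 at 210.0 and 90.8 in the same order. HPD, an enzyme of tyrosine breakdown, was at 46.9 in HepG2_ADARkd and 584 in HepG2_control. Of 12 fibroblast and mesenchymal markers, 4 were listed (COL3A1, COL5A2, DCN and LUM), with summed averages of 2604 in HepG2_ADARkd and 1203 in HepG2_control. Of 9 erythroid markers 2 were listed, with sums of 160.1 in HepG2_ADARkd and 63.6 in HepG2_control, and none of the 8 melanocyte, 5 endothelial and 6 leukocyte markers was listed. No listed marker was at 0. Low APOE and the listing of only 3 hepatocyte markers leave the label unchecked beyond that, so HepG2 is used below as the name on the labels. The part of other cell types in the results was not tested, and in bulk RNA fewer cells of a type and less RNA per cell cannot be told apart.

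Across the well-measured genes, 291 were higher in HepG2_ADARkd and 199 were lower. The share higher was 59.4% of the 490, against 55.3% of the 873 protein-coding genes with a symbol and 55% of all 1409 distinct genes. The share lower was 40.6%, against 44.7% and 45% in the same order. The median log2 fold was 1.38 among the higher genes and -1.32 among the lower genes. At 4-fold or more, 55 were higher and 32 lower, and at 8-fold or more, 16 were higher and 11 lower. Nearly all well-measured genes were detected in both groups: 1 was listed at 0 in HepG2_control and 0 in HepG2_ADARkd. How the libraries were scaled is not stated. With the knockdown averages divided by 1.5, 107 of the 291 higher genes would still be past 2-fold, and with them multiplied by 1.5, 65 of the 199 lower genes would. Genes under 2-fold are not listed, so those that would newly pass on the other side cannot be counted. No rescaled balance of directions can therefore be had, for the whole set or for a list, and the counts under scaling below give only how many listed members would stay past 2-fold.

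**Figure D1:**
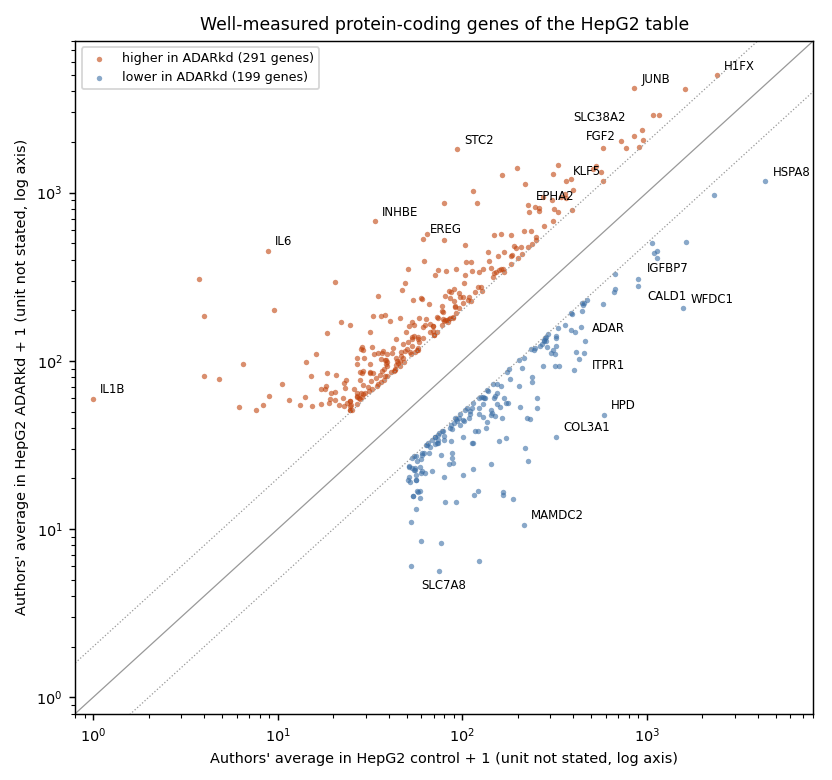
Authors' average after adding 1 in HepG2_ADARkd (vertical, log axis) against HepG2_control (horizontal, log axis) for the 490 well-measured protein-coding genes, 1 point per gene. The solid line marks equal averages and the dotted lines 2-fold; the band between the dotted lines is empty because the table lists no gene there. The 291 higher genes lie above it and the 199 lower genes below it.

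Function was read from 34 lists of genes covering secreted factors, receptors and signalling, transcription factors, metabolism, transport, proteases and matrix, cell structure, and protein turnover and RNA. Of the well-measured genes, 235 were in at least 1 list. Transcription factors and their regulators leaned furthest to the higher side, with 37 of 43 higher (86.0%), followed by secreted factors with 21 of 25 (84%) and proteases and matrix with 13 of 16 (81.2%). Receptors and signalling had 32 of 43 higher (74.4%), transport and channels 17 of 27 (63.0%), and protein turnover and RNA 17 of 25 (68%). Metabolism was divided, with 15 of 29 higher (51.7%), and so was cell structure and traffic, with 14 of 28 (50%). Among the 255 well-measured genes in no list, 126 were higher and 129 lower. These shares are to be read beside the 59.4% of the whole set, and they were not tested. The lists were written with earlier results of these data known, so the order of the areas is description only. With low members included, 49 of 65 transcription factor genes and 24 of 34 secreted factor genes were higher. Proteases and matrix had 21 of 31 higher, and receptors and signalling 49 of 76. Those counts are to be read beside 483 of 873 (55.3%).

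Most listed growth factor genes were higher in HepG2_ADARkd. Of 62 coding genes in the growth factor list, 10 were listed, 8 higher and 2 lower. The 6 that were well measured were all higher, and the 2 lower genes fell under the floor. EPGN and VEGFC reached that floor through the knockdown average alone. Of the 6, 3 would stay past 2-fold if the knockdown averages were divided by 1.5. EREG (ENSG00000124882), which encodes epiregulin, a ligand of the EGF receptor family, averaged 530.1 in HepG2_ADARkd and 60.2 in HepG2_control, 8.68-fold higher. EPGN, which encodes epigen, a ligand of the same receptor family, averaged 59.8 in HepG2_ADARkd and 13 in HepG2_control. Both EGF-family ligands were thus more than 4-fold higher. The vascular growth factors were both higher: VEGFC, which acts mainly on lymphatic endothelium, averaged 64.5 in HepG2_ADARkd and 19.5 in HepG2_control, and VEGFA, the main angiogenic factor, was 2.54-fold higher. FGF2, a fibroblast growth factor without a signal peptide, averaged 1854 in HepG2_ADARkd and 768 in HepG2_control, and the matricellular factor CYR61 (now CCN1) averaged 1319 in HepG2_ADARkd and 566 in HepG2_control. These 2, named after their values were seen, differed the least of the 6, at 2.41-fold and 2.33-fold.

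Activin subunits, ligands of the TGF-beta superfamily, were higher. INHBE (ENSG00000139269), the activin beta-E subunit made by hepatocytes, averaged 674.8 in HepG2_ADARkd and 32.5 in HepG2_control, 20.2-fold higher. INHBB, the activin beta-B subunit, averaged 128 in HepG2_ADARkd and 49.8 in HepG2_control.

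Binding proteins of insulin-like growth factors were divided by member. IGFBP1, a liver-secreted binding protein, averaged 97 in HepG2_ADARkd and 13.2 in HepG2_control. IGFBP4 (ENSG00000141753) averaged 13.5 in HepG2_ADARkd and 91 in HepG2_control, 6.34-fold lower. IGFBP7, which binds insulin-like growth factors weakly, averaged 304 in HepG2_ADARkd and 892 in HepG2_control, 2.92-fold lower. One binding protein was therefore higher and 2 lower. Among intracellular regulators of insulin signalling, GRB10, an adaptor that restrains the insulin receptor, averaged 229.7 in HepG2_ADARkd and 52.9 in HepG2_control. TRIB3, a pseudokinase that binds AKT, was 6.55-fold higher, PHLDA1, a pleckstrin-homology protein, was 4.58-fold higher, and DDIT4, an inhibitor of mTORC1, averaged 4124 in HepG2_ADARkd and 1603 in HepG2_control. PIK3R3, a regulatory subunit of PI3 kinase, was the lower one, at 44.5 in HepG2_ADARkd and 95.6 in HepG2_control. In all, 6 of the 9 well-measured members of this list were higher (66.7%, against 59.4% of all 490). Over all 11 listed members 6 were higher and 5 lower, near the 55.3% higher of the 873 protein-coding genes with a symbol. Of the 6, 4 would stay past 2-fold if the knockdown averages were divided by 1.5.

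Cytokine receptors that pair with gp130 stood on both sides. IL6ST, which encodes gp130 itself, the shared signalling chain of the interleukin-6 family, averaged 134 in HepG2_ADARkd and 52.2 in HepG2_control. OSMR, the oncostatin M receptor chain, averaged 591 in HepG2_ADARkd and 235 in HepG2_control. LIFR, the receptor chain for leukemia inhibitory factor, averaged 54.8 in HepG2_ADARkd and 153 in HepG2_control, 2.75-fold lower. So of the chains listed, gp130 and OSMR were higher by 2.54-fold and 2.51-fold and LIFR was lower, while the ligand LIF was 2.69-fold higher at 84.7 in HepG2_ADARkd and 30.8 in HepG2_control. IL4R, the interleukin-4 receptor chain, was 6.95-fold higher. IL20RB, a receptor chain for the interleukin-20 group, averaged 344 in HepG2_ADARkd and 72.5 in HepG2_control, and it overlaps another listed gene on the opposite strand. Receptors of the TNF family were also on both sides. TNFRSF10D, a decoy receptor for the death ligand TRAIL, averaged 37.5 in HepG2_ADARkd and 120.2 in HepG2_control, 3.15-fold lower. TNFRSF12A and TNFRSF21, named after their values were seen, were 2.17-fold and 2.03-fold higher in HepG2_ADARkd. Of the 9 well-measured members of this list 7 were higher (77.8%, against 59.4% of all 490). Of these 7, 2 would stay past 2-fold with the knockdown averages divided by 1.5.

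**Figure D2:**
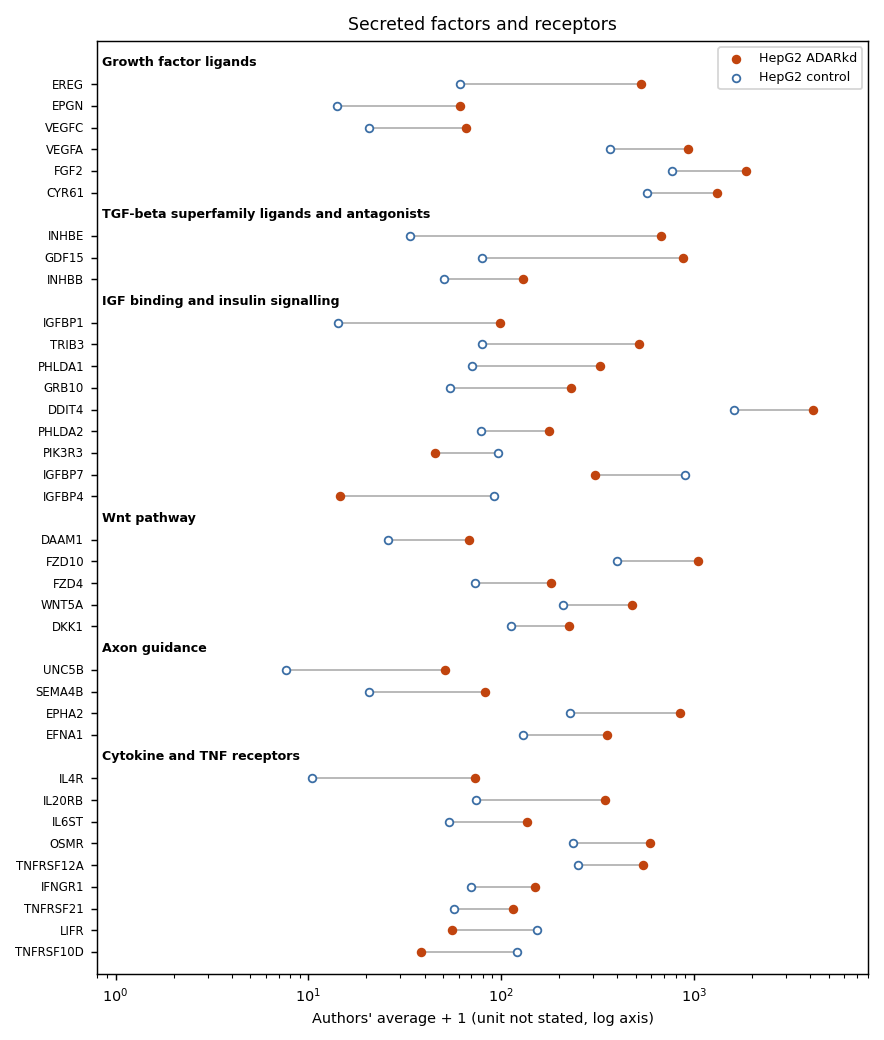
Authors' averages after adding 1 (log axis) in HepG2_ADARkd (filled) and HepG2_control (open) for well-measured members of 6 lists of secreted factors and receptors, 1 row per gene. The filled point lies to the right in most rows; IGFBP4, IGFBP7, PIK3R3, LIFR and TNFRSF10D have it to the left.

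Negative feedback regulators of receptor tyrosine kinases and MAP kinases stood higher. ERRFI1, an inhibitor that binds the EGF receptor kinase domain, averaged 162 in HepG2_ADARkd and 23.8 in HepG2_control, 6.60-fold higher. SPRY2, a Sprouty inhibitor of growth factor signalling, averaged 147 in HepG2_ADARkd and 71.6 in HepG2_control, close to the 2-fold limit of the table. The dual-specificity phosphatases, which remove phosphate from MAP kinases, were all on the higher side among those well measured. DUSP4 averaged 169.8 in HepG2_ADARkd and 21 in HepG2_control, DUSP5 averaged 184 in HepG2_ADARkd and 35.5 in HepG2_control, and DUSP6, which acts on ERK, averaged 114 in HepG2_ADARkd and 36 in HepG2_control. MAPK4, an atypical MAP kinase, was the only lower one of the 7 well-measured members of the MAP kinase list, at 37.3 in HepG2_ADARkd and 116 in HepG2_control. With the knockdown averages divided by 1.5, 4 of the 6 higher members would stay past 2-fold. Over all 11 listed members of the MAP kinase list, 8 were higher and 3 lower, beside 55.3% higher of the 873 protein-coding genes with a symbol. Of the genes named here, ERRFI1, DUSP4, DUSP5 and DUSP6 reached the floor through the knockdown average alone. Receptor kinases themselves stood on both sides. ROR2, a receptor for WNT5A, was lower at 48.2 in HepG2_ADARkd and 145 in HepG2_control, while EPHA2, described below, was 3.70-fold higher.

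Ephrin and netrin receptor genes were higher together with 2 ligands of axon guidance. EPHA2 (ENSG00000142627), an ephrin receptor kinase, averaged 842 in HepG2_ADARkd and 227 in HepG2_control, and its ligand EFNA1 averaged 351 in HepG2_ADARkd and 128 in HepG2_control. UNC5B, a netrin receptor, averaged 50.3 in HepG2_ADARkd and 6.62 in HepG2_control. SEMA4B, a transmembrane semaphorin, was 3.98-fold higher. These were the 4 well-measured genes of the axon guidance list, and UNC5B and SEMA4B reached the floor through the knockdown average alone. Over all 7 listed members, 6 were higher and 1 lower. Of the 4, 3 would still be past 2-fold with the knockdown averages divided by 1.5.

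Well-measured Wnt pathway genes were higher by smaller margins. The receptors FZD10 and FZD4 averaged 1042 and 180.5 in HepG2_ADARkd, against 398 and 72.2 in HepG2_control. WNT5A, a ligand of the non-canonical branch, averaged 475 in HepG2_ADARkd and 207 in HepG2_control, and it overlaps a listed gene on the opposite strand. DKK1, a secreted inhibitor of the canonical branch named after its values were seen, averaged 224 in HepG2_ADARkd and 111 in HepG2_control, and DAAM1, an actin-nucleating formin downstream of Dishevelled, was 2.64-fold higher. All 5 well-measured members were higher, and none would stay past 2-fold with the knockdown averages divided by 1.5. Over all 7 listed members, 5 were higher and 2 lower. In the Hedgehog pathway, GLI3, a transcription factor that acts mostly as a repressor, averaged 186 in HepG2_ADARkd and 37 in HepG2_control, 4.91-fold higher, and SUFU, which holds GLI proteins in the cytoplasm, averaged 27.2 in HepG2_ADARkd and 65 in HepG2_control. NUMBL, an adaptor related to the Notch inhibitor NUMB, was 2.73-fold lower.

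Receptors coupled to G proteins were mostly too low to be well measured. Of 20 listed members, 10 were higher and 10 lower. Only 5 were well measured, 3 of them higher (60%, near the 59.4% of all 490) and 2 lower. Of the 3, 1 would stay past 2-fold with the knockdown averages divided by 1.5. GPR39, a zinc-sensing receptor, averaged 119 in HepG2_ADARkd and 31.5 in HepG2_control, and it overlaps the listed gene LYPD1 on the opposite strand. CXCR4, the receptor of the chemokine CXCL12, averaged 155 in HepG2_ADARkd and 329 in HepG2_control.

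Among transcription factors, basic leucine-zipper genes were higher in 11 of 12 well-measured cases (91.7%, against 59.4% of all 490). Over all 13 listed members 11 were higher and 2 lower. Of the 11 well-measured higher genes, 5 would be past 2-fold higher with the knockdown averages divided by 1.5. JUNB (ENSG00000171223), a subunit of AP-1, averaged 4161 in HepG2_ADARkd and 856 in HepG2_control, 4.86-fold higher. CEBPB, a C/EBP factor of the acute-phase response, averaged 2038 in HepG2_ADARkd and 724 in HepG2_control. MAFF, a small MAF protein, averaged 185 in HepG2_ADARkd and 32 in HepG2_control. DDIT3, which encodes the stress factor CHOP, was 6.32-fold higher and lies on the opposite strand to the listed gene MARS, which was also higher. The other well-measured higher members ranged from 2.35-fold to 6.58-fold. ATF5 was lower, at 192 in HepG2_ADARkd and 386 in HepG2_control.

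Zinc-finger, ETS and NF-kB related genes were higher in all 14 well-measured cases, with a median log2 fold of 1.37, and 6 of the 14 would be past 2-fold with the knockdown averages divided by 1.5. Over all listed members, including low ones, 16 of 17 were higher. EGR1, an early growth response factor, averaged 1407 in HepG2_ADARkd and 198 in HepG2_control. RUNX2, a Runt factor known for its part in bone formation, averaged 67.5 in HepG2_ADARkd and 17.1 in HepG2_control. The epithelial factors of the list were also higher: KLF5 averaged 1175 in HepG2_ADARkd and 363 in HepG2_control, ELF3 345 in HepG2_ADARkd and 157 in HepG2_control, and EHF 93.8 in HepG2_ADARkd and 42.8 in HepG2_control, named after their values were seen. Regulators of NF-kB and a subunit of it were among them. TNFAIP3, which encodes the ubiquitin-editing inhibitor A20, averaged 342 in HepG2_ADARkd and 80.8 in HepG2_control. BCL3 and NFKBIZ encode nuclear IkB proteins; BCL3 averaged 172 in HepG2_ADARkd and 39.5 in HepG2_control, and NFKBIZ, named after its values were seen, was 3.27-fold higher. RELB, a subunit of the non-canonical branch and also named after its values were seen, averaged 70.4 in HepG2_ADARkd and 28 in HepG2_control.

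The promoters of TNFAIP3 and NFKBIZ are shown as examples picked because their windows hold letters of an NF-kB site; of the 11 genes of their list with a window, 3 do (TNFAIP3, NFKBIZ and ELF3). The windows run from 250 bases before to 50 bases after the start in RefSeq (GRCh38.p14), at chr6:137867009-137867308 on the plus strand and chr3:101827740-101828039 on the plus strand, and capitals mark an NF-kB motif of fixed outer bases and 2 free positions on either strand. It occurs in TNFAIP3 at positions -67 and -55 and in NFKBIZ at position -223 from the start, and 1.92% of all 27305 RefSeq promoters hold it. A match describes letters and not a bound site.
TNFAIP3: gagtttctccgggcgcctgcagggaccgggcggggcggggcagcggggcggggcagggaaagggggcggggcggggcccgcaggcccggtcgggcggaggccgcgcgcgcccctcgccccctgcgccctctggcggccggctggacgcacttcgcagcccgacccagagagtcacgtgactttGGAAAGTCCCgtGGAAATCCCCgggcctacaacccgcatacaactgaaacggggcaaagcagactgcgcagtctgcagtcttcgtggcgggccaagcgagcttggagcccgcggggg
NFKBIZ: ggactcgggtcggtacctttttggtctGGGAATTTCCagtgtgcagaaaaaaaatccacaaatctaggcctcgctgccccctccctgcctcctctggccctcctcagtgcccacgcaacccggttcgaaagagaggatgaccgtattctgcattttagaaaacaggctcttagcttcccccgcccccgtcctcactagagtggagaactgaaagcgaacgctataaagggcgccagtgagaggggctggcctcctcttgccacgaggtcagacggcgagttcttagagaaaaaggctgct

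Factors that set tissue identity stood on both sides. Of 18 listed homeobox, forkhead, SOX, GATA and T-box genes, 11 were higher and 7 lower. Of the 8 well measured, 5 were higher (62.5%), near the 59.4% of all 490. Of these 5, 2 would stay past 2-fold with the knockdown averages divided by 1.5. FOXQ1, a forkhead factor of epithelial cells, averaged 812 in HepG2_ADARkd and 260.5 in HepG2_control. GATA6, an endoderm factor, averaged 55.3 in HepG2_ADARkd and 17.9 in HepG2_control. ONECUT2 and FOXA1, factors of liver development, averaged 162 and 210.0 in HepG2_ADARkd, against 62 and 90.8 in HepG2_control. FOXF1, a forkhead factor of mesenchyme, averaged 25.5 in HepG2_ADARkd and 86.8 in HepG2_control, and TBX1 and TSHZ2 were 2.59-fold and 2.47-fold lower. Of the bHLH genes, AHR, the aryl hydrocarbon receptor, averaged 84 in HepG2_ADARkd and 27.8 in HepG2_control. ATOH8 was 5.55-fold lower, at 13.5 in HepG2_ADARkd and 79.5 in HepG2_control. All 3 well-measured genes of the nuclear receptor list were higher, and over all 4 listed members 3 were higher and 1 lower. NCOA7, a coactivator, was higher by 4.14-fold, the orphan receptor NR4A1 by 2.75-fold and PPARG, a receptor of fat storage, by 2.20-fold. With the knockdown averages divided by 1.5 NCOA7 alone would pass 2-fold.

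**Figure D3:**
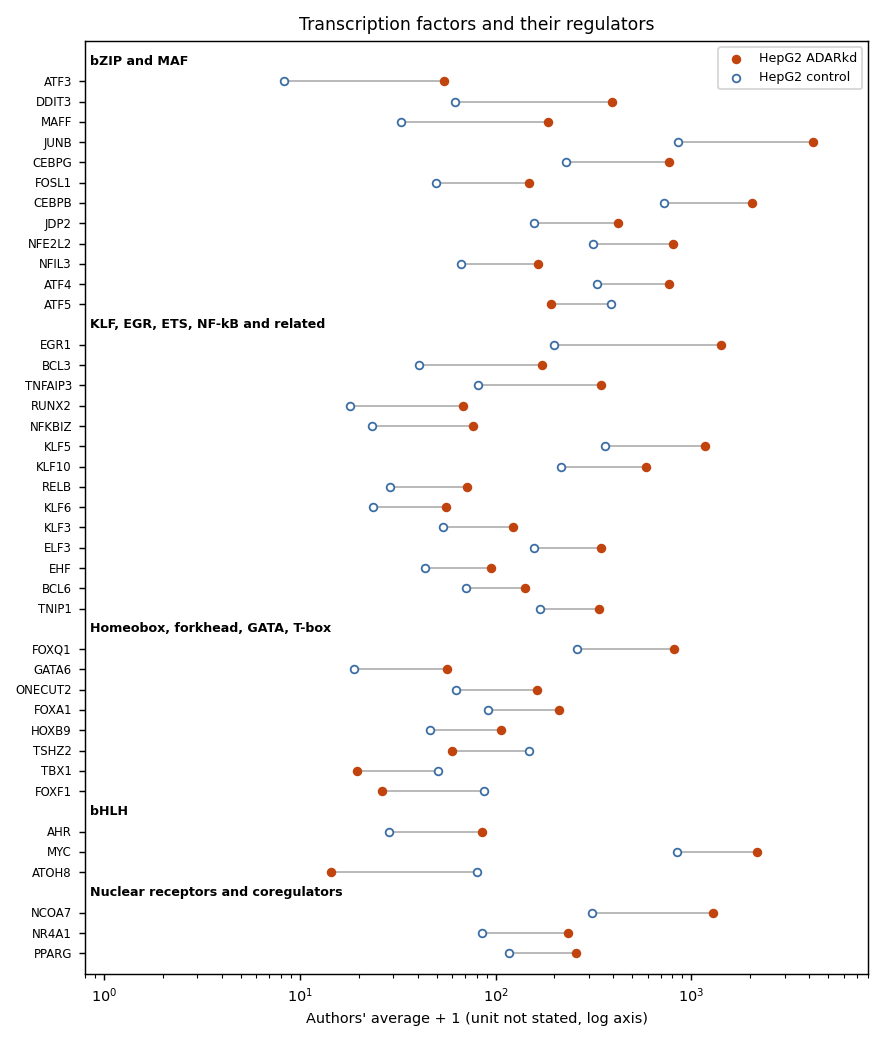
Authors' averages after adding 1 (log axis) in HepG2_ADARkd (filled) and HepG2_control (open) for every well-measured member of 5 lists of transcription factors and their regulators, 1 row per gene. All 14 rows of the KLF, EGR, ETS, NF-kB group have the knockdown to the right; ATF5, TSHZ2, TBX1, FOXF1 and ATOH8 have it to the left.

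Enzymes that make amino acids were higher, and HPD, an enzyme of tyrosine breakdown, was lower. ASNS (ENSG00000070669), which makes asparagine, averaged 261 in HepG2_ADARkd and 46.2 in HepG2_control, 5.54-fold higher. In serine synthesis, the row listed as C8ORF62, whose identifier the annotation names PSAT1 and which was named after its values were seen, averaged 443 in HepG2_ADARkd and 166 in HepG2_control, and the row listed as PSPHL, whose identifier is that of PSPH, averaged 94.3 in HepG2_ADARkd and 25.8 in HepG2_control. CTH, which makes cysteine, was 3.01-fold and GPT2, the mitochondrial alanine transaminase, 2.96-fold higher. HPD (ENSG00000158104), which encodes hydroxyphenylpyruvate dioxygenase, stood at 46.9 in HepG2_ADARkd and 584 in HepG2_control, 12.2-fold lower; it overlaps a listed gene on the opposite strand. HPDL, which is similar to HPD in sequence and was in no list, averaged 408 in HepG2_ADARkd and 1138 in HepG2_control, 2.79-fold lower. In the amino acid list 6 of 7 well-measured members were higher (85.7%, against 59.4% of all 490). Over all 8 listed members 7 were higher and 1 lower. Of the 6, 3 would stay past 2-fold with the knockdown averages divided by 1.5.

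Genes that charge transfer RNA with amino acids were higher beside them. GARS, the glycyl-tRNA synthetase, averaged 1382 in HepG2_ADARkd and 511 in HepG2_control, MARS, the methionyl enzyme, averaged 679.8 in HepG2_ADARkd and 310.0 in HepG2_control, and CARS, the cysteinyl enzyme, averaged 170.2 in HepG2_ADARkd and 52.8 in HepG2_control. GARS and MARS were named after their values were seen, and CARS overlaps a listed gene on the opposite strand. The list of RNA-binding proteins and translation factors held 8 well-measured genes, all higher, of which 4 would pass 2-fold with the knockdown averages divided by 1.5. Its others included SESN2, a leucine sensor that restrains mTORC1, at 243 in HepG2_ADARkd and 33.8 in HepG2_control, and ZFP36L1, which promotes decay of mRNAs with AU-rich elements, at 1453 in HepG2_ADARkd and 329 in HepG2_control. EEF1A2, an elongation factor, averaged 1874 in HepG2_ADARkd and 904 in HepG2_control. Over all 9 listed members of this list 8 were higher and 1 lower, beside 55.3% higher of the 873 protein-coding genes with a symbol. Of the genes named here, SESN2 reached the floor through the knockdown average alone.

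The promoters of ASNS and CARS (CARS1 in RefSeq) are shown as examples picked because they hold the core of the C/EBP-ATF response element through which amino acid shortage is known to act on ASNS. The RefSeq windows (GRCh38.p14) lie at chr7:97872359-97872658 and chr11:3057374-3057673, both on the minus strand, and are written in the direction of the gene. Capitals mark the motif TGATGNAA on either strand, at position -68 in ASNS and at position -2, in reverse orientation, in CARS. Of all RefSeq promoters 3.67% hold it. Among genes with a window, it was in 1 of 5 of the amino acid list (ASNS) and in 2 of 7 of the RNA-binding and translation list (CARS and MARS), and the others lack these letters in this window. A RefSeq window was found for 365 of the 490 genes (74.5%), under the 80% needed for a share over the set, so none is given.
ASNS: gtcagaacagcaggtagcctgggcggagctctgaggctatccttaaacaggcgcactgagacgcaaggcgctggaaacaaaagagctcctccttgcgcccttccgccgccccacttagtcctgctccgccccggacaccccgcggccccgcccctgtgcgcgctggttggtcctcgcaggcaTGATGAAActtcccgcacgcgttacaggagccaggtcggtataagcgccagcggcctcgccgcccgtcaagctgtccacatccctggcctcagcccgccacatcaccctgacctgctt
CARS: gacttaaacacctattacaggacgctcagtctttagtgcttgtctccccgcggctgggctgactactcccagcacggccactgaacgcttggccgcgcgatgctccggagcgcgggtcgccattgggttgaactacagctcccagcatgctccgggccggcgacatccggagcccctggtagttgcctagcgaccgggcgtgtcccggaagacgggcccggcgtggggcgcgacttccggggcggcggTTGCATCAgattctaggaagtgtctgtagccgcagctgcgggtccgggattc

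In the lipid and sterol list, 5 of 6 well-measured genes were lower, and 8 of 12 over all listed members. These counts stand beside 40.6% lower of all 490 and 44.7% lower of the 873 protein-coding genes with a symbol. IDI1, isopentenyl diphosphate isomerase, averaged 91.7 in HepG2_ADARkd and 271 in HepG2_control, and the row listed as SC4MOL (MSMO1), a sterol demethylating enzyme, averaged 26.7 in HepG2_ADARkd and 75.8 in HepG2_control. INSIG1, which retains the sterol sensor SCAP in the endoplasmic reticulum, averaged 114 in HepG2_ADARkd and 310.5 in HepG2_control. MYLIP, a ubiquitin ligase that degrades the LDL receptor, was 2.69-fold lower. ACSL4, which activates long polyunsaturated fatty acids, averaged 353 in HepG2_ADARkd and 162 in HepG2_control. None of the 5 lower genes would stay past 2-fold with the knockdown averages multiplied by 1.5. Central carbon metabolism had few members: PCK2, the mitochondrial phosphoenolpyruvate carboxykinase, averaged 235 in HepG2_ADARkd and 58.5 in HepG2_control, and ENO3, the muscle enolase, averaged 15 in HepG2_ADARkd and 115 in HepG2_control.

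The cyclooxygenases stood on opposite sides. PTGS2, the inducible cyclooxygenase COX-2, averaged 292 in HepG2_ADARkd and 19.4 in HepG2_control, 14.4-fold higher. PTGS1, the constitutive COX-1, averaged 79.5 in HepG2_ADARkd and 238 in HepG2_control, 2.97-fold lower. PTGES, which turns their product into prostaglandin E2, averaged 984 in HepG2_ADARkd and 362 in HepG2_control. The aldo-keto reductases AKR1C1, AKR1C2 and AKR1C3, which act on steroids and prostaglandins, were 5.04-fold, 4.96-fold and 2.38-fold lower; they are close copies, so reads may be split among them and each value is uncertain. Of the 10 well-measured genes of this list 5 were higher and 5 lower, beside 59.4% higher of all 490. Over all 13 listed members 6 were higher and 7 lower. In retinoid handling, STRA6, a membrane receptor that takes up retinol, was 3.31-fold higher. NAMPT, which makes a precursor of NAD, averaged 325 in HepG2_ADARkd and 102 in HepG2_control.

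**Figure D4:**
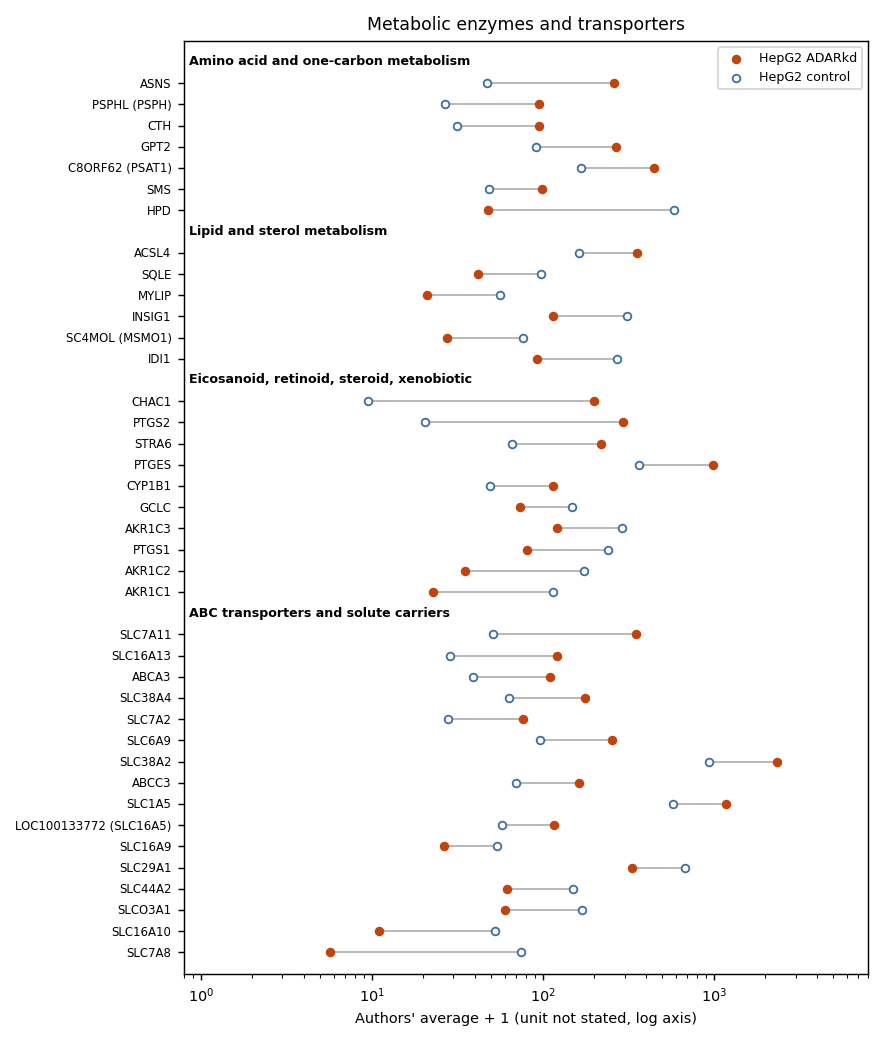
Authors' averages after adding 1 (log axis) in HepG2_ADARkd (filled) and HepG2_control (open) for every well-measured member of 4 lists of enzymes and transporters, 1 row per gene. Sterol genes and the AKR1C reductases have the knockdown to the left, amino acid enzymes other than HPD have it to the right, and SLC7A8 is the lowest of the transporters.

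Amino acid carriers among the solute carriers stood on both sides. SLC7A11, the cystine-glutamate exchanger subunit, averaged 349 in HepG2_ADARkd and 49.8 in HepG2_control. SLC38A2, a sodium-coupled transporter of small neutral amino acids, averaged 2346 in HepG2_ADARkd and 939 in HepG2_control, and SLC38A4 of the same family was 2.78-fold higher. SLC7A8 (ENSG00000092068), an exchanger of large neutral amino acids, averaged 4.67 in HepG2_ADARkd and 73.8 in HepG2_control, 13.2-fold lower, and SLC16A10, a transporter of aromatic amino acids, averaged 10.0 in HepG2_ADARkd and 51.5 in HepG2_control. Other amino acid carriers, named after their values were seen, were higher: SLC7A2, a carrier of cationic amino acids, by 2.74-fold, the glycine transporter SLC6A9 by 2.66-fold and the glutamine carrier SLC1A5 by 2.03-fold. Over the transporter list as a whole 10 of 16 well-measured genes were higher (62.5%), near the 59.4% of all 490. Over all 26 listed members 14 were higher and 12 lower. Of the 10, 2 would stay past 2-fold with the knockdown averages divided by 1.5. SLC16A13, a monocarboxylate transporter family member, averaged 119 in HepG2_ADARkd and 27.5 in HepG2_control, and SLCO3A1, an organic anion transporter, averaged 59.1 in HepG2_ADARkd and 168 in HepG2_control.

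Among ion channels, ITPR1 (ENSG00000150995), the calcium release channel opened by inositol trisphosphate, averaged 110.3 in HepG2_ADARkd and 457 in HepG2_control, 4.11-fold lower. SCNN1A, the alpha subunit of the epithelial sodium channel, averaged 15.8 in HepG2_ADARkd and 56 in HepG2_control. CACNG8, an auxiliary subunit of glutamate receptors, averaged 115 in HepG2_ADARkd and 28.1 in HepG2_control, and GJB5, a connexin, was 3.02-fold higher. In this list 7 of 11 well-measured genes were higher (63.6%), near the 59.4% of all 490. The count over all 18 listed was 9 higher and 9 lower. Of the 7, 4 would stay past 2-fold with the knockdown averages divided by 1.5.

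Well-measured members of the list of proteases and their inhibitors were higher. F3, which encodes tissue factor, the starter of coagulation, averaged 569.5 in HepG2_ADARkd and 63.5 in HepG2_control. SERPINE2, a thrombin inhibitor, averaged 816 in HepG2_ADARkd and 248 in HepG2_control, and TFPI, the inhibitor of the tissue factor pathway, averaged 477 in HepG2_ADARkd and 226 in HepG2_control. So the starter of coagulation and 2 of its inhibitors stood on the same side, by 8.84-fold, 3.28-fold and 2.11-fold; TFPI overlaps a listed gene on the opposite strand. CASP4, an inflammatory caspase that senses lipopolysaccharide, was 3.47-fold higher. All 7 well-measured members of the protease list were higher, 3 of them past 2-fold with the knockdown averages divided by 1.5, while over all 16 listed members 12 were higher and 4 lower. WFDC1 (ENSG00000103175), a secreted protein with a whey acidic protein domain that was in no list, averaged 205 in HepG2_ADARkd and 1573 in HepG2_control, 7.64-fold lower.

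The syndecans, cell-surface heparan sulfate proteoglycans, stood on both sides. SDC4 averaged 389 in HepG2_ADARkd and 138 in HepG2_control, 2.80-fold higher, and SDC2 averaged 58.8 in HepG2_ADARkd and 254 in HepG2_control, 4.27-fold lower. HYAL1, a hyaluronidase, averaged 70.0 in HepG2_ADARkd and 201 in HepG2_control, and CHST11, a chondroitin sulfotransferase, averaged 337 in HepG2_ADARkd and 122 in HepG2_control. This list had 6 of 9 well-measured genes higher (66.7%, against 59.4% of all 490). Over its 15 listed members 9 were higher and 6 lower. Of the 6 well-measured higher genes, 0 would stay past 2-fold with the knockdown averages divided by 1.5. The list also holds DCN and LUM, the mesenchymal markers named above. Adhesion genes were higher in 8 of 10 well-measured cases (80%, against 59.4% of all 490). Over all 14 listed members 10 were higher and 4 lower. Of the 8, 5 would be past 2-fold higher with the knockdown averages divided by 1.5. Among them CLDN1, a tight-junction claudin, averaged 1019.9 in HepG2_ADARkd and 113 in HepG2_control. MCAM, an adhesion molecule of the immunoglobulin family, averaged 159 in HepG2_ADARkd and 437 in HepG2_control.

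The cytoskeleton list stood on both sides, with 5 of 11 well-measured genes higher (45.5%, against 59.4% of all 490) and 6 lower. Over all listed members 11 of 20 were higher. The lower genes named here include several of muscle contraction. MYLK3 (ENSG00000140795), a myosin light chain kinase of heart muscle, averaged 14.2 in HepG2_ADARkd and 187 in HepG2_control, 12.3-fold lower. TAGLN, an actin-bundling protein of smooth muscle, averaged 23.2 in HepG2_ADARkd and 142 in HepG2_control. CALD1, which encodes caldesmon, averaged 279 in HepG2_ADARkd and 899 in HepG2_control, TNNC1, a troponin C, averaged 147 in HepG2_ADARkd and 406 in HepG2_control, and MYL9, a myosin light chain, averaged 498 in HepG2_ADARkd and 1064 in HepG2_control. On the other side stood the keratin gene KRT19 and S100P, a calcium-binding protein, which averaged 258 and 1212 in HepG2_ADARkd, against 83.8 and 387 in HepG2_control. MYO1G, a class I myosin, was 5.88-fold and the kinesin KIF21B 8.64-fold higher. The muscle genes DMD (dystrophin) and MB (myoglobin), in no list and named after their values were seen, were also higher. They averaged 239 and 101.5 in HepG2_ADARkd, against 108 and 35.5 in HepG2_control. Of the 6 lower genes 3 would stay past 2-fold with the knockdown averages multiplied by 1.5. The mesenchymal markers COL3A1, lower, and DCN, LUM and COL5A2, higher, were on both sides.

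Genes of vesicle traffic were lower in 6 of 7 well-measured cases and in 11 of 14 listed cases. Of all 490 well-measured genes 40.6% were lower, and of the 873 protein-coding genes with a symbol 44.7%. LAMP3, a lysosomal membrane protein, averaged 7.25 in HepG2_ADARkd and 75.5 in HepG2_control, 9.27-fold lower. RAB20, a GTPase of endosomes, averaged 52.5 in HepG2_ADARkd and 205 in HepG2_control. RAB9A, which works in transport from late endosomes to the Golgi, was the higher one, at 465 in HepG2_ADARkd and 195 in HepG2_control. With the knockdown averages multiplied by 1.5, 2 of the 6 lower genes would stay past 2-fold.

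Ubiquitin ligases and deubiquitinases were almost evenly split, with 9 of 17 well-measured genes higher (52.9%, against 59.4% of all 490). Over all 29 listed members 15 were higher and 14 lower. Of the 9, 4 would stay past 2-fold with the knockdown averages divided by 1.5. BIRC3, which ubiquitinates RIPK1 in TNF signalling, averaged 868 in HepG2_ADARkd and 119.9 in HepG2_control. OTUD1, a deubiquitinase, averaged 388 in HepG2_ADARkd and 103 in HepG2_control. Of the Kelch-like family on the lower side, KLHL4 averaged 15.9 in HepG2_ADARkd and 121 in HepG2_control, 7.24-fold lower, and KLHL13, a subunit of a CUL3 ligase, averaged 87.4 in HepG2_ADARkd and 403 in HepG2_control. RNF150 and RNF182, RING-finger proteins, were 5.14-fold and 3.69-fold lower.

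Some well-measured genes with large folds or high averages belonged to no list. MAMDC2, which encodes a protein with MAM domains, had the lowest fold among the 490, at 9.61 in HepG2_ADARkd and 214 in HepG2_control. TNFAIP2, a gene induced by TNF, averaged 1269 in HepG2_ADARkd and 162 in HepG2_control. FAM167A averaged 76.8 in HepG2_ADARkd and 3.83 in HepG2_control. Among the genes with the highest averages, H1FX, a linker histone, averaged 4992 in HepG2_ADARkd and 2392 in HepG2_control, PTMS, which encodes parathymosin, averaged 972 in HepG2_ADARkd and 2309 in HepG2_control, and CCND3, which encodes cyclin D3, averaged 435 in HepG2_ADARkd and 1089 in HepG2_control. IER2, MCL1 and the row C14ORF4 (IRF2BPL) were 2.66-fold, 2.17-fold and 2.48-fold higher, and ANTXR1, an anthrax toxin receptor, was 2.54-fold lower. ANKRD2, a stretch-responsive ankyrin-repeat protein of muscle, and SAMD5 were also lower, at 5.07 and 7.5 in HepG2_ADARkd, against 51.6 and 58.8 in HepG2_control.

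Members close to the 2-fold limit show how near the table's edge lies. The row listed as ANXA2P1, with the identifier of ANXA2, averaged 784 in HepG2_ADARkd and 391.5 in HepG2_control, and TNIP1, which binds A20, averaged 336 in HepG2_ADARkd and 168 in HepG2_control. ITPKB, a kinase of inositol phosphates, averaged 36.4 in HepG2_ADARkd and 73.8 in HepG2_control. The table lists no gene outside the limit. In all, 227 of the 490 genes lay under 2.5-fold in either direction.

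Few of the well-measured genes were also listed in K562, a leukemia line with its own knockdown and control. There were 19, which is 3.88% of the 490 and 2.02% of the 942 distinct genes of the K562 table. Of these, 13 were higher in HepG2_ADARkd and lower in K562_ADARkd than in their controls, 1 was lower in HepG2_ADARkd and higher in K562_ADARkd, 5 were lower in both and 0 higher in both. The genes lower in both were ADAR, IGFBP4, CXCR4, CD83 and TMEM170B. IGFBP4 averaged 49.5 in K562_ADARkd and 107 in K562_control, and CXCR4 averaged 7 in K562_ADARkd and 16 in K562_control. The share of all listed K562 genes that was lower is not given here, so these counts cannot be set against it. No test of a difference between the lines was possible.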

How the data were processed

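RNA of 4 samples (HepG2 and K562, ADAR knockdown and scrambled control, 1 sample per group with 2 technical replicates) was sequenced with 76-base paired reads, per the labels' protocols. The submitters' processing notes list TopHat, SAMtools and hg19 and no version. How reads were counted, on which annotation, with or without strand, and whether values were scaled is not given in the sources used here. Per the file headers, the deposited tables hold 1 average per gene and group, treated here as a signal of unknown unit, and the authors' log2 fold and signed fold, this signed fold being a score with a minus sign for lower genes. Multiplying both averages by 1 whole number, 40 at most, gave whole numbers within 1e-06 for 98.9% of the 1409 HepG2 genes. Of 396 genes with 1 transcript in GENCODE 29, 69.2% did so at a multiplier of 2. Unless scaled values had been rounded first, such averages hold no factor for depth, so a difference in depth between libraries may be part of each fold. The depth is unknown, and with it the precision of low averages; no interval is given.

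Log2 folds were recomputed with a pseudocount of 1 and matched the deposited values. Of rows sharing a symbol, the one with the larger mean of both averages was kept. Gene types, overlaps and current names came from GENCODE 29 on GRCh38 by identifier, which matched 1278 of 1413 rows; 38 well-measured genes carry another name there. Coordinates are printed only for RefSeq promoters. The members and the 34 lists were chosen with earlier results of these data known. Named genes were ADAR, the 20 highest and 20 lowest log2 folds, the 10 with the largest averages in each direction, and up to 4 per direction in each list, all among well-measured genes, 194 in all; the text describes a selection and says where others are named. No test was run, since each group has 1 culture. Alternatives were folds of 3 and 4, other floors, pseudocounts of 0.1 and 10, other gene types and scaling by 1.5. Exclusion of overlapping genes and of renamed identifiers was added after seeing the data. Folds and list membership were checked on simulated data. Python 3.11.15, numpy 2.4.6, pandas 2.3.3 and matplotlib 3.10.9 were used. A few results are not reported here.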

Additional observations from a re-analysis of the deposited data

Results flagged for a closer look

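Among the genes named by the rule, 6 were listed with opposite directions in the 2 cell lines, while ADAR, CXCR4 and IGFBP4 were lower in both. Of all 19 well-measured genes listed in both lines, 14 had opposite directions and 5 the same. The log2 fold of IL8 was 6.35 in HepG2 and -2.02 in K562, that of INHBE 4.33 and -1.68, and that of STC2 4.27 and -1.38, in the same order of lines. For IL20RB it was 2.23 in HepG2 and -1.17 in K562, for PHLDA1 2.19 and -1.27, and for SERPINE2 1.71 and -1.42. With 1 sample per group the difference between the lines was not tested. The share of all listed K562 genes that was lower is not given here, so these directions cannot be set against it. Averages in K562 were low for several of them, with SERPINE2 at 5.12 in K562_ADARkd and 15.4 in K562_control.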

How the results depend on the processing

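The counts depend on the fold and the floor by construction. At 3-fold or more, 106 well-measured genes were higher and 65 lower, and at 4-fold or more 55 and 32. A floor at the upper quartile of the larger average gave 167 higher and 96 lower, and no floor gave 483 and 390. With the knockdown averages multiplied by 1.5, 65 were lower, and with them divided by 1.5, 107 were higher. The other counts of higher and of lower genes stayed within 1.5 times the reported ones under a floor at the lower quartile, a pseudocount of 10, other gene types and the exclusions added after seeing the data. Of 23 lists with 5 or more well-measured members, 18 had more members higher than lower. This was 10 at 4-fold or more and 10 with the knockdown averages divided by 1.5. The majority turned to the lower side in 3 lists at 4-fold or more and in 5 under division. The rest of the fall came from lists left with equal counts or with no member. Since genes under 2-fold are not listed, division can only remove higher genes and multiplication only lower ones, so these counts show no rescaled balance. The log2 fold of ADAR was -1.24 with the knockdown averages multiplied by 1.5 and -2.40 with them divided. The direction of a listed gene cannot turn under the pseudocounts or scalings run, by construction; 17 of the 194 were under 2-fold with a pseudocount of 10. No paired analysis was possible because each group had 1 sample. Values of technical replicates were not used here, so none could be left out. The depth is unknown, which limits what can be said of low averages.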
